A study of Homo sapiens with 6 samples.

Results

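The histone cluster genes encode the linker histone H1 and the core histones H2A, H2B, H3 and H4, and most lie in tandem clusters on chromosomes 6 and 1. They were taken as every row of the deposited count table whose gene name begins with HIST1H, HIST2H, HIST3H or HIST4H, which gave 71 of 33542 genes. The T24 line, derived from a human urinary bladder carcinoma, received either siTRAIP, a small interfering RNA that targets TRAIP (3 libraries), or the control small interfering RNA siNC (3 libraries). Both groups were grown in the same medium and transfected with the same lipid reagent, so they differ by the small interfering RNA alone, as far as the labels say. The labels name a stranded mRNA kit and do not say how mRNA was selected. The sources used here give neither the time after transfection nor whether the libraries came from separate cultures, so the spread behind each p-value may be technical.

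Cluster histone mRNAs are made in S phase, when new DNA needs nucleosomes. Most end in a short stem-loop, bound by the protein SLBP, in place of a poly(A) tail, and the U7 small nuclear RNP guides the cut that makes this end. Some copies can also be read through to a poly(A) signal farther downstream, which gives a polyadenylated form. A library that starts from poly(A) RNA therefore holds little of the stem-loop form. TRAIP is a RING-type ubiquitin ligase that acts at replication forks, and the comparison asks how its depletion changes the transcripts of these cells.

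The 3' sequences below, from GENCODE v29 transcripts (GRCh38), show the stem-loop in capitals in 3 of the 5 best-counted genes and in a pair of H2B genes that lay at opposite ends of the range of fold changes. They are at chr6:26124662-26124691 (plus strand) for HIST1H2AC, chr1:228457362-228457391 (minus) for HIST3H2A, chr1:149833025-149833054 (plus) for HIST2H4A, chr6:26158580-26158609 (plus) for HIST1H2BD and chr6:26123465-26123494 (minus) for HIST1H2BC. HIST1H2AC and HIST3H2A hold the same 16 letters in capitals, and so do HIST1H2BD and HIST1H2BC.
HIST1H2AC: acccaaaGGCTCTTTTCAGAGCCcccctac
HIST3H2A: acataaaGGCTCTTTTCAGAGCCacctact
HIST2H4A: tcccaaaGGCCCTTTTTAGGGCCgaccact
HIST1H2BD: tcccaaaGGCTCTTTTAAGAGCCacgcatg
HIST1H2BC: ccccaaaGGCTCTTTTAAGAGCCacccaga

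Annotated transcripts of 24 histone cluster genes had AATAAA, the commonest poly(A) signal, in their last 60 bases. It is shown in capitals at chr6:26139080-26139109 (plus) for HIST1H2AC, chr1:149834444-149834473 (plus) for HIST2H4A and chr6:26171317-26171346 (plus) for HIST1H2BD. The H2A and H4 genes are shown because they were well counted, and HIST1H2BD because its log2 fold change was the highest. The HIST1H2AC transcript ran 1128 bases past its stem-loop, and that of HIST2H4A ran 1167 bases past it. Both lengths count transcript bases with introns removed. On the genome, the printed stem-loop and AATAAA of each gene lie farther apart than that.
HIST1H2AC: catgaggtAATAAAaggtaatgcaaaggga
HIST2H4A: catttaagAATAAAcagtccagtagtaaga
HIST1H2BD: ttataattAATAAAatctgcggagaattgt

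The small interfering RNA target was measured first. TRAIP (chromosome 3, 49828599 to 49856574, minus strand, GRCh38) fell to 12.5, 14.7 and 11.6 CPM (counts scaled by library size) in siTRAIP, against 26.5, 28.3 and 28.4 CPM in siNC, a fold of 0.465 (edgeR adjusted p = 6.74e-10). Library totals were 39111793, 46102683 and 70439496 gene counts in siTRAIP, against 56041110, 54818483 and 58066330 in siNC. Raw counts are therefore not comparable between libraries without scaling. Of 8 tested epithelial markers 0 rose and 1 fell, where 7.47% of all tested genes rose and 5.34% fell. The 1 was KRT7, at 1152 CPM in siTRAIP and 1307 CPM in siNC (edgeR adjusted p = 0.00375). KRT8 stood at 1595 CPM in siTRAIP and 1685 CPM in siNC, VIM at 705 and 725 CPM, and CDH1, KRT5, UPK1A and UPK3A were near 0 in both. Leukocyte markers and endothelial markers each summed to less than 0.2 CPM in every library. Fibroblast markers summed to 1.08, 0.967 and 4.70 CPM in siTRAIP, against 1.19, 1.19 and 1.14 CPM in siNC. The high value belonged to siTRAIP replicate 3, and the part of this in the histone values was not tested. Without that library 2622 genes of the table passed an edgeR adjusted p of 0.05, against 2393 with all 6 libraries. Leaving out any other library gave fewer than 2393.

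Histone cluster RNA was a very small part of every library. All 71 genes together took 707, 789 and 1169 counts in siTRAIP, against 1181, 1093 and 1178 counts in siNC. These counts were 0.00181%, 0.00171% and 0.00166% of all gene counts in siTRAIP and 0.00211%, 0.00199% and 0.00203% in siNC. A count was present for 50, 46 and 56 genes in siTRAIP, against 57, 57 and 56 genes in siNC. The siTRAIP replicates 1 and 2 had the lowest library totals, so these numbers of genes do not compare levels. By mean CPM, the median histone cluster gene stood at percentile 38.7 of all genes in the table, and the highest stood at percentile 62.4.

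Genes were called well counted where the mean over the 6 libraries was at least 1 CPM, and sparse below that. Only 5 genes were well counted: HIST1H2AC, HIST1H2BK, HIST1H1C, HIST3H2A and HIST2H4A. They held 49.2% of the mean summed CPM, and the other 66 genes held 50.8%. The lowest well-counted gene had 1.41 CPM and the highest sparse gene 0.784 CPM. Of the sparse genes, 22 passed edgeR's filter on low counts and 44 did not. The 44 untested genes had mean counts from 0.333 to 8.67 and at most 13 counts in any library.

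None of the 27 tested histone cluster genes passed an adjusted p of 0.05 in either direction, where 12.8% of all 18685 tested genes did. By direction the background was 7.47% higher and 5.34% lower in siTRAIP. Among the 6085 genes in the same range of mean CPM, 1.91% passed, so a count of 0 lies near that background. At an unadjusted p under 0.05 there were 4 histone cluster genes with edgeR, and DESeq2 called 0 with 2 at an unadjusted p under 0.05. The share of all tested genes at that unadjusted level was not computed, so these 2 counts have no background. The smallest edgeR adjusted p was 0.0764, for HIST1H2BC. Limma on log2(RPKM + 0.1) called 1, the transcribed pseudogene HIST2H2BD. Standard errors of the log2 fold change were 0.148 to 0.222 in the well-counted genes and had a median of 0.381 over all 27, against 0.0938 over all tested genes. In sparse genes, even differences well above a standard error could go uncalled at this depth. HIST1H2BC, at -1.47 (SE 0.538), still missed the adjusted threshold.

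Fold changes of the tested genes lay below 0 more often than above. The log2 fold change was below 0 in 21 of 27 genes (77.8%), against 50.4% of all tested genes and 50.5% of genes in the same range of mean CPM. Its median was -0.24 over the 27 genes, -0.22 over the well-counted ones and -0.28 over the sparse ones, against -0.002 over all tested genes. The median over the tested histone cluster genes was -0.16 without siTRAIP replicate 3 and -0.12 on halved counts (8 of 13 below 0). It was -0.06 with limma on log2(RPKM + 1). In those settings the median over all tested genes was -0.002, -0.005 and -0.03. The histone cluster values come from a list chosen with results of these libraries known, and some of the genes share reads. The 3 siTRAIP libraries all lay below the 3 siNC libraries in 5 genes (18.5%), against 14.4% of all tested genes and 7.05% of those in the same range. The reverse held for 1 gene (3.70%), against 14.8% and 7.28%. In either direction, 29.1% of all tested genes had groups that did not overlap. Over all 71 genes, mean CPM was lower in siTRAIP for 45 and higher for 26. In the table as a whole, 50.3% of the 19800 genes in that range were lower in siTRAIP.

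**Figure D1:**
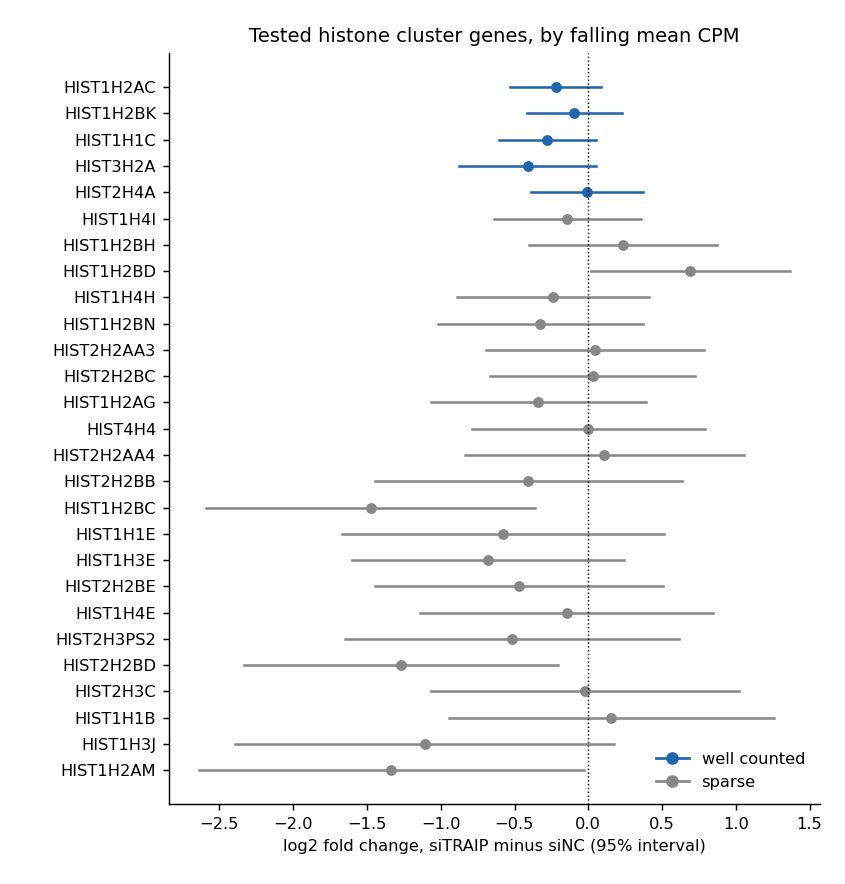
The log2 fold change (siTRAIP minus siNC) of the 27 tested histone cluster genes is plotted with its 95% interval, ordered from the highest mean CPM at the top to the lowest at the bottom, with well-counted genes in blue and sparse genes in grey. The intervals of all 5 well-counted genes cross 0, and they are far narrower than those of most sparse genes.

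Linker histones H1 bind the DNA between nucleosomes. HIST1H1C (chromosome 6, 26055787 to 26056428, minus strand), a somatic H1 gene, had 70, 86 and 108 counts in siTRAIP, against 118, 112 and 136 counts in siNC. On the CPM scale that was 1.84, 1.89 and 1.57 in siTRAIP, and 2.06, 2.02 and 2.28 in siNC. Every siTRAIP library lay below every siNC library, yet edgeR's test of this log2 fold change, -0.28 (SE 0.158), gave an adjusted p of 0.296, which missed the threshold. The interval of its fold ran from 0.658 to 1.04. HIST1H1E had 8, 14 and 4 counts in siTRAIP, against 12, 20 and 14 counts in siNC, and the groups overlapped on the CPM scale. HIST1H1B had 8, 4 and 16 counts in siTRAIP, against 6, 8 and 14 counts in siNC. Its log2 fold change was 0.16 (SE 0.53). The 3 other H1 genes were not tested and had at most 8 counts in a library.

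H2A pairs with H2B in dimers, which sit on either side of the H3 and H4 tetramer in the nucleosome core. HIST1H2AC (chromosome 6, 26124145 to 26139116, plus strand) was the most counted gene of all 71, with 92, 100 and 133 counts in siTRAIP, against 132, 140 and 162 counts in siNC. Its 2.42, 2.20 and 1.93 CPM in siTRAIP overlapped with 2.30, 2.53 and 2.71 CPM in siNC, and the fold of 0.859 had an interval from 0.694 to 1.06 (edgeR adjusted p = 0.396). HIST3H2A (chromosome 1, 228456979 to 228457873, minus strand) varied more between libraries than the other well-counted genes. It had 70, 48 and 87 counts in siTRAIP, against 134, 98 and 80 counts in siNC, or 1.84, 1.05 and 1.26 CPM against 2.34, 1.77 and 1.34 CPM. Its fold of 0.752 was the lowest among the well-counted genes, with an interval from 0.546 to 1.04 (edgeR adjusted p = 0.270).

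HIST2H2AA3 and HIST2H2AA4 are near-identical copies on chromosome 1, and all 100-base windows of HIST2H2AA3 (100%) occur in another histone gene, so their counts are uncertain. HIST2H2AA3 had 15, 24 and 38 counts in siTRAIP, against 15, 40 and 28 counts in siNC, and its log2 fold change was 0.05 (SE 0.36). HIST1H2AM had 0, 4 and 8 counts in siTRAIP, against 12, 10 and 12 counts in siNC. The 0 in siTRAIP replicate 1 allows up to 0.079 CPM (3 counts), below the 0.18 to 0.209 CPM of the siNC libraries. All siTRAIP libraries lay below all siNC libraries. The log2 fold change was -1.33 (SE 0.631) and the edgeR adjusted p was 0.191.

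H2B genes lay at both ends of the range of fold changes. HIST1H2BK (chromosome 6, 27146418 to 27146798, minus strand) had 78, 83 and 124 counts in siTRAIP, against 121, 117 and 108 counts in siNC. The groups overlapped at 2.05, 1.82 and 1.80 CPM in siTRAIP and 2.11, 2.11 and 1.81 CPM in siNC. Its fold was 0.937, with an interval from 0.748 to 1.17 (edgeR adjusted p = 0.779). HIST1H2BH had 34, 38 and 42 counts in siTRAIP, against 20, 42 and 50 counts in siNC, and siNC replicate 1 was the low library. HIST1H2BD had the highest log2 fold change of the 27, at 0.69 (SE 0.326). It stood at 0.632, 0.725 and 0.710 CPM in siTRAIP, against 0.523, 0.235 and 0.519 CPM in siNC. It was the only tested histone cluster gene in which the siTRAIP libraries were all higher, and its adjusted p was 0.190 with edgeR.

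HIST1H2BC (chromosome 6, 26114873 to 26123926, minus strand) had the lowest log2 fold change of the 27, at -1.47 (SE 0.538). It had 8, 6 and 4 counts in siTRAIP, against 30, 18 and 11 counts in siNC. Both groups spread widely, and 0.211 CPM in siTRAIP replicate 1 exceeded 0.184 CPM in siNC replicate 3. Its edgeR adjusted p of 0.0764 missed the threshold, and the interval of its fold ran from 0.166 to 0.779 before adjustment. HIST2H2BD, annotated as a transcribed unprocessed pseudogene, had 3, 6 and 7 counts in siTRAIP, against 12, 18 and 14 counts in siNC. The groups did not overlap. EdgeR gave a log2 fold change of -1.27 (SE 0.514) and an adjusted p of 0.118. With limma it was -1.03 on log2(RPKM + 0.1), with an adjusted p of 0.0227, and -0.34 on log2(RPKM + 1), with an adjusted p of 0.0256. HIST1H2BC, HIST2H2BD, HIST1H2AM and HIST1H3J were singled out after their values were seen.

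**Figure D2:**
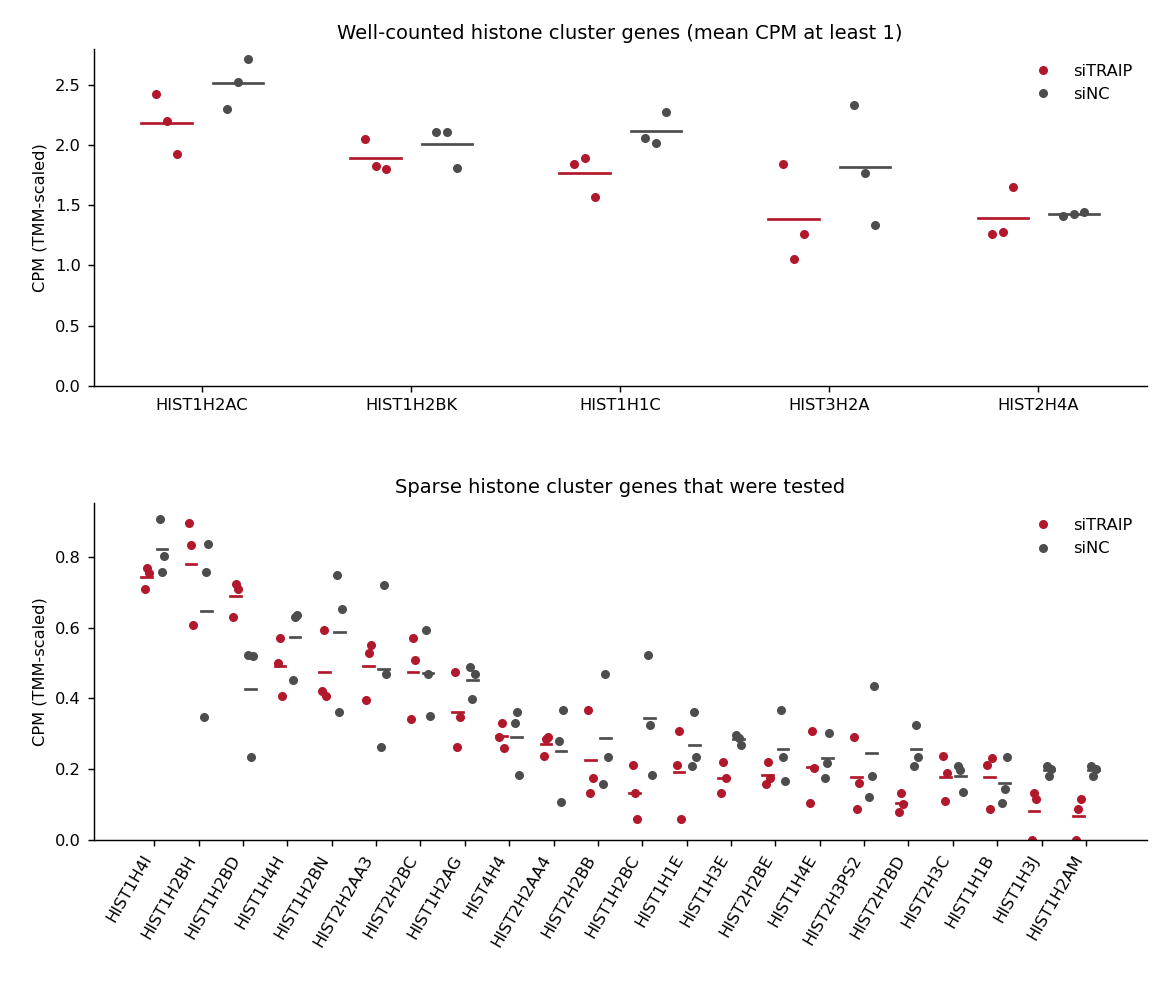
CPM in each library (points) and the mean of each group (bars) are plotted for the 5 well-counted histone cluster genes in the upper panel and for the 22 sparse tested ones in the lower panel, with siTRAIP in red and siNC in grey. HIST1H1C is the well-counted gene whose groups do not overlap, at 1.57 to 1.89 CPM in siTRAIP and 2.02 to 2.28 CPM in siNC, while HIST1H2BD stands higher in siTRAIP.

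H3 and H4 form the tetramer at the centre of the nucleosome, and H3 genes had the fewest counts of the 4 core classes. HIST1H3E (chromosome 6, 26224199 to 26227473, plus strand) had 5, 10 and 12 counts in siTRAIP, against 17, 16 and 16 counts in siNC. Its groups did not overlap on the CPM scale. EdgeR gave a log2 fold change of -0.68 (SE 0.45) and an adjusted p of 0.380. HIST1H3J had 0, 6 and 8 counts in siTRAIP, against 12, 10 and 12 counts in siNC, nearly the counts of HIST1H2AM. The genes share exonic bases on the same strand, 44.6% of HIST1H3J and 88.0% of HIST1H2AM, so their values are not independent. Every 100-base window of HIST2H3C occurs in other H3 genes, so its counts are uncertain. It had 9, 5 and 13 counts in siTRAIP, against 12, 11 and 8 counts in siNC. HIST2H3PS2 had 11, 4 and 11 counts in siTRAIP, against 7, 10 and 26 counts in siNC, and other genes cover 99.5% of its exonic bases.

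HIST2H4A (chromosome 1, 149832659 to 149839767, plus strand) was the well-counted H4 gene, with 48, 58 and 114 counts in siTRAIP, against 81, 79 and 86 counts in siNC. It stood at 1.26, 1.27 and 1.65 CPM in siTRAIP, against 1.41, 1.43 and 1.44 CPM in siNC, so the siTRAIP values surrounded the siNC values. The fold of 0.994 had an interval from 0.763 to 1.30 (edgeR adjusted p = 0.988). HIST2H4B, which shares 94.9% of the windows of HIST2H4A, had 0, 2 and 2 counts in siTRAIP, against 6, 6 and 4 counts in siNC, so the split of reads between this pair is uncertain. HIST1H4I had 27, 35 and 52 counts in siTRAIP, against 52, 42 and 48 counts in siNC, with a log2 fold change of -0.14. HIST1H4H had 19, 26 and 28 counts in siTRAIP, against 26, 35 and 38 counts in siNC, with a log2 fold change of -0.24. Neither passed the test, with edgeR adjusted p of 0.789 and 0.707.

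Among the 44 untested genes, 8 had no count in any siTRAIP library and 4 had none in any siNC library. The 8 were HIST1H1A, HIST1H3A, HIST1H4D, HIST1H3F, HIST1H2BI, HIST1H4J, HIST1H2APS3 and HIST1H4PS1, and none had more than 4 counts in a siNC library. The 4 were HIST1H2AB, HIST1H2BM, HIST1H2BO and HIST1H2APS6, with at most 4 counts in a siTRAIP library. A count of 0 allows up to 3 counts, which was 0.0435 to 0.079 CPM in siTRAIP libraries and 0.0502 to 0.0541 CPM in siNC libraries. Such genes could not be told from equal levels. HIST1H2BG was the most counted of the untested genes, with 12, 8 and 12 counts in siTRAIP, against 4, 6 and 10 counts in siNC. That was 0.316, 0.176 and 0.174 CPM in siTRAIP, against 0.0697, 0.108 and 0.167 CPM in siNC, without overlap. Among the untested genes, HIST1H4K also stood higher in siTRAIP without overlap, and HIST2H4B stood lower. The untested genes together gave 2.29, 1.67 and 2.15 CPM in siTRAIP, against 2.65, 1.97 and 2.03 CPM in siNC.

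Summed over all 71 genes, histone cluster RNA was lower in siTRAIP. The sums were 18.6, 17.3 and 16.9 CPM in siTRAIP, against 20.6, 19.7 and 19.7 CPM in siNC, with means of 17.6 ± 0.871 and 20.01 ± 0.495 CPM (SD, n = 3 each) and a ratio of 0.881. The groups did not overlap. No p-value was computed for a sum over chosen genes. The well-counted genes gave 9.42, 8.24 and 8.20 CPM in siTRAIP, against 10.2, 9.85 and 9.58 CPM in siNC, a ratio of 0.873, and the sparse genes gave a ratio of 0.889. Without the TMM scaling of library size the ratio over all 71 genes was 0.845. Without that scaling the median log2 fold change over all tested genes was also lower, at -0.06 against -0.002. In these bulk libraries, fewer cells in S phase and less histone RNA per cell cannot be told apart. Nor can either be told from a change in how much of the histone RNA entered the library, which was not tested.

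By class, the ratio of mean sums was 0.821 for the 6 H1 genes, 0.847 for the 19 H2A genes, 0.961 for the 19 H2B genes, 0.740 for the 14 H3 genes and 0.908 for the 13 H4 genes. H2B sums overlapped between groups, at 5.98, 5.71 and 5.18 CPM in siTRAIP and 6.36, 5.65 and 5.54 CPM in siNC. The sums of the other 4 classes did not overlap, but the gaps were narrow. The highest siTRAIP sum and the lowest siNC sum were 2.395 and 2.457 CPM for H1 and 6.11 and 6.16 CPM for H2A. They were 1.19 and 1.21 CPM for H3, and 3.54 and 3.63 CPM for H4. Among single tested genes, 29.1% had groups that did not overlap in either direction. H3 had the smallest sums, at 1.00, 0.813 and 1.19 CPM in siTRAIP and 1.27, 1.21 and 1.57 CPM in siNC. Whether the classes differ from each other was not tested. By cluster, the ratio was 0.891 for the 53 HIST1 genes, of which 52 lie on chromosome 6 and HIST1H2APS6 on chromosome 13. It was 0.890 for the 15 HIST2 genes, all on chromosome 1.

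**Figure D3:**
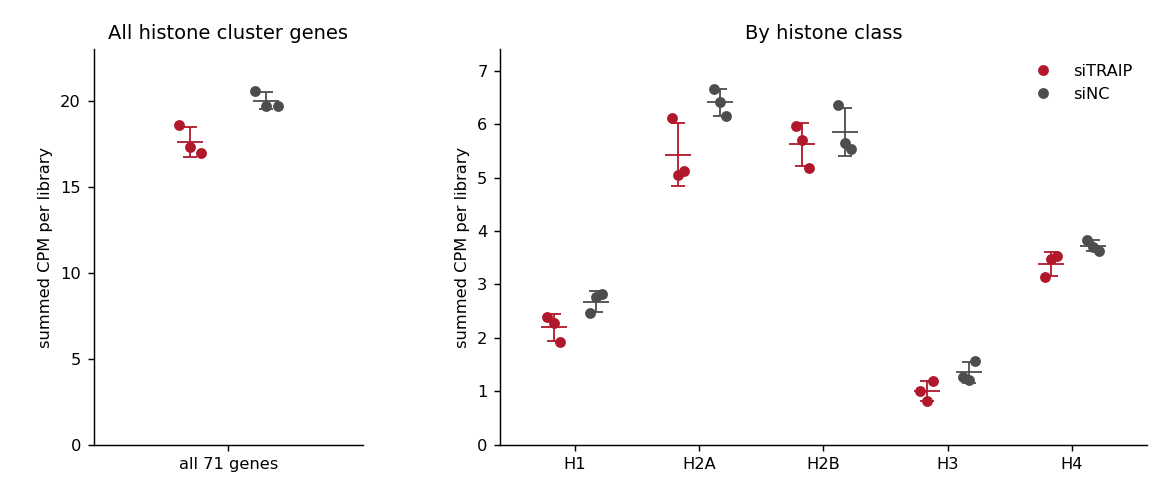
Summed CPM per library (points) with the mean and SD of each group (bars, n = 3) is plotted over all 71 histone cluster genes in the left panel and by histone class in the right panel, siTRAIP in red and siNC in grey. The siTRAIP sums over all genes sit between 16.9 and 18.6 CPM, below all siNC sums, while the H2B sums overlap.

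The annotated 3' ends were compared with these counts. The stem-loop was searched in the sense of each transcript as the pattern GGNNCTNTNNAGNNCC, in which N is any base. It cannot overlap AATAAA. It was found in transcripts of 32 of the 71 genes, and in 1.28% of the 83129 protein-coding transcripts of the annotation, while AATAAA was in the last 60 bases of 36% of them. In 24 of the 32 genes a transcript that holds the stem-loop ran at least 100 bases past it. In the other 8, every transcript that holds it ended within 100 bases. The other 39 genes had no match, and the models of 27 of the 71 held the coding length only, so no match says little about their true 3' ends. HIST2H2BD and HIST2H2BC count among the 24 from GENCODE models that differ in length from the deposited ones.

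Of the 24 genes whose annotated transcript ran on, 3 were well counted (HIST1H2AC, HIST3H2A and HIST2H4A) and 15 were tested. Of the 8 that ended near the stem-loop, 0 were well counted and 3 were tested. The genes without a match gave the other 2 well-counted genes, HIST1H2BK and HIST1H1C. Their models hold only the coding sequence, so their values per length are not on the same footing as those of longer models. On the RPKM scale, which divides by length, HIST1H2BK averaged 5.12, HIST1H1C 3.03, HIST3H2A 1.79, HIST1H2AC 1.41 and HIST2H4A 0.753 over the 6 libraries.

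The log2 fold change was below 0 in 13 of the 15 tested genes whose transcript ran on, in 0 of the 3 that ended near the stem-loop, and in 8 of the 9 without a match. The 3 were HIST1H2BD, HIST2H2AA3 and HIST2H2AA4, at 0.69, 0.05 and 0.11. Of the windows of HIST2H2AA3 and HIST2H2AA4, 100% and 96.8% occur in other histone genes, so these values are not independent. Among the 13, HIST4H4, HIST2H4A and HIST2H3C lay at -0.0003, -0.008 and -0.023. The 8 include HIST1H3J and HIST1H2AM, which share exonic bases. Summed CPM had a ratio of 0.867 in the genes that ran on, 1.15 in those that ended near the stem-loop and 0.848 in those without a match. The genes that ended near the stem-loop gave 1.53, 1.76 and 1.78 CPM in siTRAIP, against 1.60, 1.25 and 1.56 CPM in siNC, which overlapped. HIST1H2BD stands apart among these 8, since a second, spliced transcript without the stem-loop ends 12747 bases beyond it along the genome, near the AATAAA printed above. In a check made after seeing the data, the 7 genes without HIST1H2BD gave 0.895, 1.03 and 1.07 CPM in siTRAIP, against 1.08, 1.01 and 1.04 CPM in siNC, a ratio of 0.959 that lay on the other side of 1. HIST2H2AA3 and HIST2H2AA4 hold AATAAA in the last 60 bases of transcripts that end 35 bases past the loop. By deposited exonic length, the 21 genes of at least 1000 bases had a ratio of 0.903 and the 50 shorter ones 0.863.

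Most histone variants outside the clusters have mRNAs with poly(A) tails and are made outside S phase too. Of 12 tested variant genes, 1 rose, 1 fell and 10 did not pass, where 7.47% of all tested genes rose and 5.34% fell. H3F3A, which encodes a replacement H3, rose to 35.5, 36.1 and 38.3 CPM in siTRAIP, against 33.4, 30.5 and 30.2 CPM in siNC (log2 fold change 0.23, edgeR adjusted p = 0.00749). H1FX, a replication-independent linker histone, fell to 18.9, 18.5 and 18.6 CPM in siTRAIP, against 21.99, 21.1 and 20.7 CPM in siNC (log2 fold change -0.19, edgeR adjusted p = 0.0386). An antisense gene overlaps 22.9% of the exonic bases of H1FX. Leaving out any siNC library, or siTRAIP replicate 1 or 2, ended the call of H1FX (edgeR adjusted p of 0.0576 to 0.1701). Leaving out siNC replicate 2 or 3 ended that of H3F3A (edgeR adjusted p of 0.0605 and 0.0595), as did limma on the RPKM values (adjusted p of 0.124 and 0.126). The median log2 fold change of the 12 was 0.02, against -0.002 over all tested genes.

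Factors of histone mRNA transcription, 3' end processing and decay were measured next. The list also holds general poly(A) factors, among them FIP1L1 and PAPOLA. Of 33 tested, 4 rose, 1 fell and 28 did not pass, against 7.47% that rose and 5.34% that fell over all tested genes, and their median log2 fold change was -0.002. SLBP, which binds the stem-loop, stood at 160, 160 and 159 CPM in siTRAIP, against 154, 150 and 148 CPM in siNC, and did not pass (edgeR adjusted p = 0.215). NPAT, the coactivator of histone gene transcription, stood at 19.2, 18.2 and 19.3 CPM in siTRAIP, against 20.7, 20.9 and 19.9 CPM in siNC (edgeR adjusted p = 0.250). CASP8AP2, also called FLASH, works in both steps and rose by a log2 fold change of 0.17 (edgeR adjusted p = 0.0212).

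FIP1L1, a subunit of the general poly(A) machinery, rose by 0.27 on the log2 scale, though 45.7% of its exonic bases overlap other genes (edgeR adjusted p = 9.61e-05). CPSF2, a cleavage subunit shared by histone and poly(A) mRNAs, rose by 0.17 (edgeR adjusted p = 0.0333). SSB, the La RNA-binding protein, rose by 0.18 (edgeR adjusted p = 0.0112). PAPOLA, the main nuclear poly(A) polymerase, fell to 230, 231 and 242 CPM in siTRAIP, against 264, 262 and 259 CPM in siNC (edgeR adjusted p = 0.0103). Leaving out any library other than siTRAIP replicate 2 ended the calls of CPSF2 and CASP8AP2 (edgeR adjusted p of 0.0533 to 0.138). Leaving out siNC replicate 1 or 3 ended that of SSB, and leaving out siTRAIP replicate 1 or siNC replicate 1 ended that of PAPOLA (edgeR adjusted p of 0.0511 to 0.119).

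Histone chaperones carry histones to and from DNA. Of 30 tested genes of chaperones and deposition factors, 14 rose, 1 fell and 15 did not pass, with a median log2 fold change of 0.13. Over all tested genes 7.47% rose and 5.34% fell. All 30 had a higher mean CPM than any histone cluster gene, from 6.21 CPM for ASF1A upward, against at most 2.35 CPM. Chaperones and histone cluster genes were thus tested at unlike power, and no background share at the level of the chaperones was computed. SUPT16H, the large subunit of the FACT chaperone, rose to 1311, 1279 and 1383 CPM in siTRAIP, against 929, 1008 and 987 CPM in siNC (edgeR adjusted p = 1.84e-07). NASP, a chaperone of H3 with H4 and of H1, rose to 1571, 1504 and 1849 CPM in siTRAIP, against 1183, 1207 and 1174 CPM in siNC (edgeR adjusted p = 2.34e-04). DAXX, which deposits a replacement H3 together with ATRX, rose by a log2 fold change of 0.25 (edgeR adjusted p = 1.95e-04). ANP32E, which removes the variant encoded by H2AFZ, rose by 0.28 (edgeR adjusted p = 2.22e-04). SET, a chaperone that also inhibits histone acetylation, fell to 1044, 1011 and 999 CPM in siTRAIP, against 1294, 1387 and 1311 CPM in siNC (edgeR adjusted p = 6.84e-07). Under limma on the RPKM values the call of ANP32E was lost (adjusted p of 0.0504 and 0.0515).

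Other RNAs, listed as made without a poly(A) tail, give a value beside the histone counts. MALAT1 and NEAT1 averaged 695 and 892 CPM, against 23.9 CPM for RPPH1, the next highest of the list. They are therefore not on the same footing as the rest, and whether their RNA here lacked a tail was not tested. Of 22 listed, 21 were in the table and 11 were tested, of which 4 rose and 0 fell at an adjusted p of 0.05 with edgeR, where 7.47% of all tested genes rose and 5.34% fell. Among the 4, RNU7-1 shares its bases with other genes. Other genes also overlap 23.3% of the exonic bases of MALAT1 and 16.3% of those of RPPH1. The median log2 fold change of the 11 tested RNAs was 0.20. MALAT1, a nuclear RNA whose end forms a triple helix, rose to 737, 701 and 803 CPM in siTRAIP, against 630, 661 and 639 CPM in siNC (edgeR adjusted p = 0.00288), a call that limma on the RPKM values did not make (adjusted p of 0.116 and 0.117). RPPH1, the RNA of RNase P, rose to 23.1, 26.4 and 27.2 CPM in siTRAIP, against 23.1, 21.6 and 22.1 CPM in siNC (edgeR adjusted p = 0.0398). RN7SK, which binds and restrains a transcription elongation factor, rose to 0.684, 0.395 and 1.77 CPM in siTRAIP, against 0.139, 0.253 and 0.268 CPM in siNC (edgeR adjusted p = 0.0275). Leaving out any siNC library, or siTRAIP replicate 3, ended the calls of RPPH1 and RN7SK (edgeR adjusted p of 0.0692 to 0.181), and leaving out siTRAIP replicate 2 ended that of RPPH1 (edgeR adjusted p = 0.143).

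The U7 small nuclear RNA gene RNU7-1 also passed, at 0.369, 0.264 and 0.406 CPM in siTRAIP, against 0.157, 0.144 and 0.1005 CPM in siNC (edgeR adjusted p = 0.0492). That call was lost when any library was left out (edgeR adjusted p of 0.0604 to 0.184). Its 5' end, which pairs with histone pre-mRNA downstream of the stem-loop, lies at chr12:6943816-6943845 (plus strand) and is printed without capitals.
RNU7-1: cagtgttacagctcttttagaatttgtcta

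Of the exonic bases of RNU7-1, 98.4% overlap C12orf57 on the same strand and 100% overlap U47924.31 on the opposite strand, so its counts cannot be told from reads of those genes. Without MALAT1 and NEAT1, the listed RNAs summed to 28.7, 30.5 and 33.8 CPM in siTRAIP, against 27.1, 27.0 and 25.9 CPM in siNC. Without RPPH1 as well, they summed to 5.58, 4.11 and 6.70 CPM in siTRAIP, against 4.03, 5.40 and 3.75 CPM in siNC, and the groups overlapped. How much RNA without a poly(A) tail entered each library was not measured in any other way, and its part in the histone values was not tested.

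**Figure D4:**
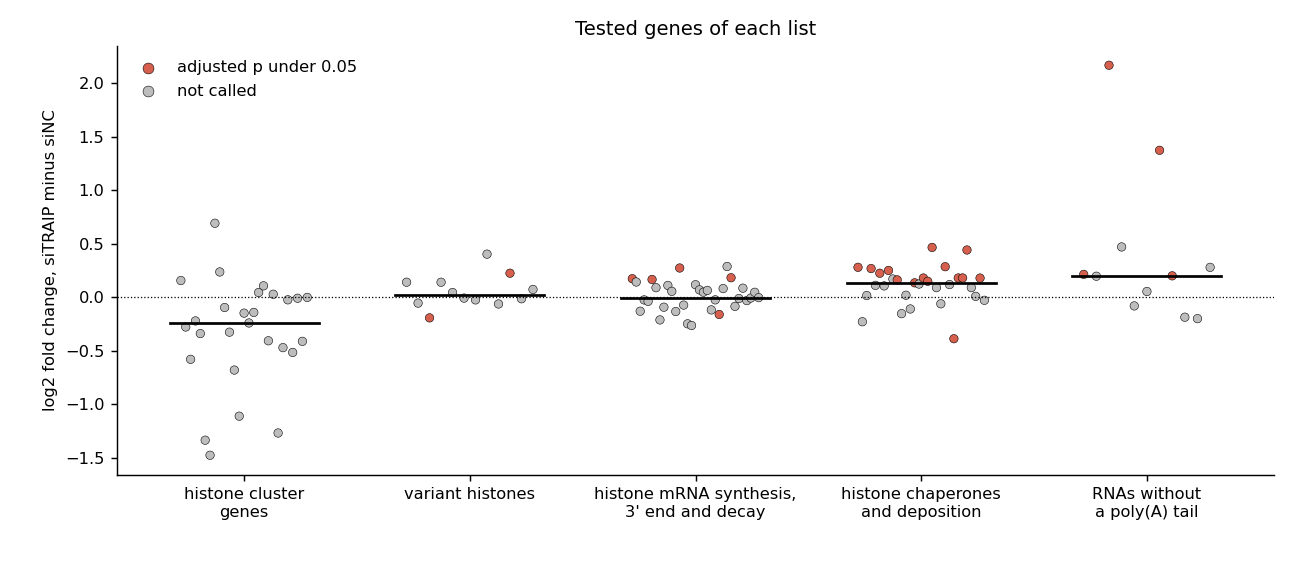
The log2 fold change (siTRAIP minus siNC) of each tested gene is plotted for the histone cluster genes and the 4 lists related to histone supply and RNA ends, with genes past an adjusted p of 0.05 in red, the others in grey, and the median of each list as a bar. The histone cluster genes have a median of -0.24 and no red point, while the chaperones have a median of 0.13 with 14 of 30 genes that rose. The chaperones had higher mean CPM than the histone cluster genes, so the power to call a gene differed.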

How the data were processed

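The 6 libraries are from T24 cells, 3 with siTRAIP and 3 with siNC, grouped by sample titles. The values deposited are whole-number counts for each gene and, from the authors too, RPKM values made from them. GRCh38, featureCounts, Subread 1.5.1 and Trimmomatic 0.36 are named in the submitters' processing notes; aligner, annotation release and counting options were not given in the sources used here. Overlapping and antisense genes are therefore uncertain. Even numbers made up 70.2% of counts from 1 to 10 and 50.8% of those above 1000, so a count may not be a single fragment. Among the non-zero counts of histone cluster genes they made up 78.0%. On halved counts 13 histone cluster genes were tested and 0 were called, with a smallest adjusted p of 0.182. Floors cover counting error only and take each count as 1 fragment.

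The whole table of counts was tested with edgeR 4.0.16 (R 4.3.3): filterByExpr, TMM, quasi-likelihood fit with robust=TRUE, 2-sided F-test of siTRAIP against siNC, Benjamini-Hochberg over 18685 genes, threshold 0.05. CPM divides by the total gene count (39111793 to 70439496) multiplied by the TMM factor; intervals of single genes are 95% and unadjusted. The fit was tested on simulated data. DESeq2 1.42.0, limma 3.58.1 and other settings were alternatives, with each library left out in turn. Libraries were not paired by replicate number in the main fit. All 71 genes matched GENCODE v29 by name, 69 with the deposited exonic length (not HIST2H2BD and HIST2H2BC), and 100-base windows were used to find sequence shared between histone genes.

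Named genes are TRAIP, the 3 highest by mean CPM in each class, the largest changes among well-counted genes, and up to 5 called genes of each list by adjusted p. SLBP, NPAT and the other genes printed with counts were added after their values were seen. The members and lists were chosen with earlier results of these data known.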

Additional observations from a re-analysis of the deposited data

How the results depend on the processing

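With 3 libraries a group and a median of 4.83 counts per gene, depth limits most histone cluster genes. Under 16 alternatives, the count of histone cluster genes called remained 0 in all but limma on log2(RPKM + 0.1) and on log2(RPKM + 1), which each called 1 and found 1 that fell. The median log2 fold change of the well-counted genes stayed below 0 in all of them. Limma called 1521 and 1517 genes over the table, against 2393, and 9 and 10 pathway genes, against 26; the cause was not tested. Leaving out 1 library gave 1480 to 2622 genes over the table, lowest without siNC replicate 1 and highest without siTRAIP replicate 3. It gave 14 to 24 pathway genes: 16 without siTRAIP replicate 1, and 14 without siNC replicate 1 or 3. The summed CPM ratio of 0.881 was 0.857 to 0.898 with 1 library left out, 0.845 without TMM and 0.840 from summed RPKM. Over all tested genes the median log2 fold change was -0.062 without TMM and -0.058 with limma on log2(RPKM + 0.1), against -0.002. Those lower ratios thus come with a shift of the whole table. In alternatives chosen after seeing the data the ratio was 0.890 without genes that share a window, 0.900 without overlapped genes and 0.887 over protein-coding genes. In genes whose transcripts end near the stem-loop, the ratio of 1.15 became 0.959 without HIST1H2BD. At 0.5 CPM 10 genes were well counted, and at 5 CPM 0. At 2000 bases 11 genes were long, against 21.

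Among 266 values of named histone cluster genes, 13 changed sign, all near 0 or sparse. HIST2H2AA3 was -0.012 without TMM and HIST2H4A 0.0075 on halved counts. Leaving out 1 library gave -0.17 to 0.059 for HIST2H4A, -0.22 to 0.21 for HIST2H3C, -0.16 to 0.53 for HIST1H1B, -0.25 to 0.44 for HIST2H2AA3, -0.064 to 0.47 for HIST1H2BH and -0.93 to 0.19 for HIST2H3PS2. Of 251 values of named pathway genes, 187 stayed on their side of the threshold and 64 lost the call, with no change of sign. FIP1L1, SUPT16H, SET, DAXX and NASP stayed called in all 16 alternatives. Calls were lost in 10 of 16 for RPPH1, 9 of 16 for CPSF2, 9 of 13 for RNU7-1, 8 of 16 for CASP8AP2, 7 of 14 for RN7SK, 6 of 16 for H1FX, 5 of 16 for SSB, 4 of 16 for H3F3A, and 2 of 16 each for PAPOLA, ANP32E and MALAT1. Without TMM the lost ones were CPSF2, CASP8AP2, SSB, RPPH1 and RNU7-1 (adjusted p of 0.0533 to 0.161). With the replicate number as a block, 2145 genes and 0 histone cluster genes were called. Between libraries with the same number, deviations from the group means correlated at 0.034, -0.092 and -0.015 over genes. Between libraries with unlike numbers the correlations ran from -0.062 to 0.083. Whether libraries with the same number shared a culture or batch cannot be told from these values.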
